A study of Mus musculus with 2 samples.

Results

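CpG methylation was examined at 8 genes of the p53 pathway and of cellular senescence, Trp53, Mdm2, Cdkn2a, Cdkn2b, Rb1, Cdkn1a, Bbc3 and Bax. The members were given by name, and every listed CpG inside the annotated gene or within 3 kb of either end was taken. These windows held 902 of the 1790826 CpGs in the table. Of the 902 CpGs, 651 lay outside the sequences CCGG and TCGA. Those 651 are called other CpGs, and all values below refer to them unless stated otherwise. The CpGs inside CCGG or TCGA are cut sites of restriction enzymes used for libraries of this kind, and their levels often differed from those of their neighbours. Over the promoters of the 8 genes the 124 site CpGs averaged 55.7% in the Dnmt1+/+ library and 52.3% in the Dnmt1-/- library.

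The p53 protein, encoded by Trp53, is a transcription factor that halts division or triggers cell death after damage to DNA. Mdm2 is the ubiquitin ligase that marks p53 for destruction, and the ARF product of Cdkn2a blocks Mdm2. Cdkn1a (p21), Bbc3 (PUMA) and Bax are targets of p53 that act on the cell cycle or on mitochondria, whereas p16 (also from Cdkn2a) and p15 (Cdkn2b) inhibit the cyclin D kinases that would otherwise inactivate the RB protein, the product of Rb1. In fibroblasts grown in culture, the Cdkn2a locus and the p53 pathway are best known for the arrest called senescence.

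Both libraries came from mouse embryonic fibroblasts (MEFs) that were homozygous null for trp53. The line named Dnmt1+/+ carried a wild-type Dnmt1 gene, and the line named Dnmt1-/- was homozygous for a hypomorphic Dnmt1 allele, so that it keeps some activity of the enzyme that copies CpG methylation after replication. Each genotype was 1 RRBS library (reduced-representation bisulfite sequencing), for which short restriction fragments are sequenced after bisulfite conversion of unmethylated cytosine, and no age, sex or number of embryos was given in the sources used here. Differences are therefore between 2 libraries, and the spread between cultures of a genotype cannot be told apart from the effect of the genotype. Methylation gives no RNA level, so the fibroblast identity was not checked against marker genes.

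A CpG was in the table only with at least 10 calls in both libraries, and the depth of the member CpGs ranged from 10 to 200 calls. The whole table held 74636195 calls in Dnmt1+/+ and 78401157 in Dnmt1-/-, with a median depth of 29 and 30. A CpG at 0 methylated calls and a depth of 10 allows a level of up to 30% (3 calls). For each CpG, methylated against unmethylated calls of both libraries were set in Fisher's exact test (two-sided), with Benjamini-Hochberg adjustment over the whole table, and a CpG was called lower or higher in Dnmt1-/- at an adjusted p under 0.05. Means over several CpGs got no test, because neighbouring CpGs share reads, and intervals are 95% Wilson intervals on pooled calls that cover counting error only. Promoters were the CpGs within 1 kb of any annotated start of the gene, and bodies were the rest of the gene. A fragment was the sequence between 2 neighbouring CCGG or TCGA sites.

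The fragments on which the results turn are given here in the direction of transcription on the NCBIM37 (mm9) genome, with each measured other CpG in capitals and all other bases in lower case. The first 4 are shown for near-complete loss (Bax, Mdm2, Trp53) or for intermediate levels in Dnmt1+/+ (Cdkn2a). They are exon 3 of Bax-201 (chr7:52721388-52721481, minus strand), an intron of Mdm2 (chr10:117146629-117146705, minus strand), an intron 9 stretch of Trp53 that is exonic in Trp53-003 (chr11:69403815-69403891, plus strand), and a stretch that overlaps the first exon of Cdkn2a-001 (chr4:88927755-88927939, minus strand).
Bax exon 3: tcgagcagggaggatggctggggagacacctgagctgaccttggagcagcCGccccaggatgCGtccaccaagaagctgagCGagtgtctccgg
Mdm2 intron: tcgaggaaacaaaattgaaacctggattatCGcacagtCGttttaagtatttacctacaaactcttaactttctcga
Trp53 intron 9: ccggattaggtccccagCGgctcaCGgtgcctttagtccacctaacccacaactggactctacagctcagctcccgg
Cdkn2a first exon of Cdkn2a-001: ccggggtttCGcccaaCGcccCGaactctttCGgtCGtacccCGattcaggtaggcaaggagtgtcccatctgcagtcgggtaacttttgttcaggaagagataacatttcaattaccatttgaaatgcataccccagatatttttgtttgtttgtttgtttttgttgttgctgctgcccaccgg

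The next 4 are shown for a high level that was largely kept, in Cdkn1a exon 2 (chr17:29235665-29235731, plus strand), and for low levels in both libraries, in a Cdkn1a intron (chr17:29232244-29232420, plus strand), Bbc3 exon 2 (chr7:16897520-16897617, plus strand) and the Cdkn2b promoter (chr4:88956403-88956551, minus strand).
Cdkn1a exon 2: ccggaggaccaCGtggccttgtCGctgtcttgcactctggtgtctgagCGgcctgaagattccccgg
Cdkn1a intron: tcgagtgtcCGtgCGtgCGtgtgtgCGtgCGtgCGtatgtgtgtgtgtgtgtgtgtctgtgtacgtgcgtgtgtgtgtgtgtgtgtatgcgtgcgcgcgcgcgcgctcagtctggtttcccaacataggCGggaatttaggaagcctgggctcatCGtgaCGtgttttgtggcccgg
Bbc3 exon 2: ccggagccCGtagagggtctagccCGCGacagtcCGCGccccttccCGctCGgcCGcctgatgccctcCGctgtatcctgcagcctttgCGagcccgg
Cdkn2b promoter: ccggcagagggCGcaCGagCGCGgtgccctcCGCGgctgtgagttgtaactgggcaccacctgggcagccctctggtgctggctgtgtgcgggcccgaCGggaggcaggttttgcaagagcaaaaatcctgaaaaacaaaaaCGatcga

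Averaged over all starts of a gene, the promoters of the 8 genes were weakly methylated in both libraries, while most methylated bodies were far lower in Dnmt1-/-. Promoter means in Dnmt1+/+ lay between 1.10% and 16.6% (median over genes 3.40%), those in Dnmt1-/- between 0.167% and 9.50% (median 0.882%), and each promoter mean was lower in Dnmt1-/-. Only the Bax promoter fell by at least 10 points, and 7 promoters moved by less. With promoters limited to 500 bp, the difference was -3.05 points for Bax and -13.8 points for Cdkn1a. Across 13754 protein-coding genes with at least 5 other CpGs in the promoter, the medians were 5.24% and 1.71%, and 23.9% of promoters fell by at least 10 points. Of the 6 bodies with at least 5 other CpGs, 5 fell by at least 10 points, whereas the Cdkn1a body, already at 0.657%, did not. Across 10833 bodies genome-wide, the medians were 87.5% and 29.8%, and 95.2% fell by that much.

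In all, 66 of the 651 other CpGs (10.1%) were called lower in Dnmt1-/- and 1 was called higher, against 44.2% and 0.635% of all other CpGs in the table. The count of 66 became 38 with at least 20 calls, 27 when every CpG was thinned to 10 calls and 28 with 1 CpG per fragment, and the higher call was lost in the last pair of settings. Of the 66, 16 lay among 477 promoter CpGs (3.35%) and 41 among 124 body CpGs (33.1%). The genome-wide shares were 10.6% called lower and 0.718% called higher in promoters, and 71.1% and 0.746% in bodies. Called falls were thus less frequent among the member CpGs than in the table, in promoters and in bodies alike, and no test of that difference was made. The Dnmt1+/+ means of the members, given below, were also under the genome-wide means of 10.5% in promoters and 76.2% in bodies. A lower share of calls therefore does not mean a smaller relative loss. Mean body methylation over the 124 CpGs in Dnmt1+/+ was 40.8% ± 40.2 (SD over CpGs), against 16.9% ± 21.7 in Dnmt1-/-, which is -23.9 points. It was -14.2 points with at least 20 calls and -14 for pooled calls. Over the 477 promoter CpGs the means were 4.82% ± 15.7 and 2.15% ± 7.81, a difference of -2.67 points. With the outermost start alone it was -1.55 points. The 34 body CpGs at 80% or more in Dnmt1+/+ averaged 92.9% and 29.0%, while all such body CpGs in the table averaged 95.2% and 37.1%. Of the 34, 32 were called lower. The share called was not taken for all such CpGs, so this count has no like reference.

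**Figure D1:**
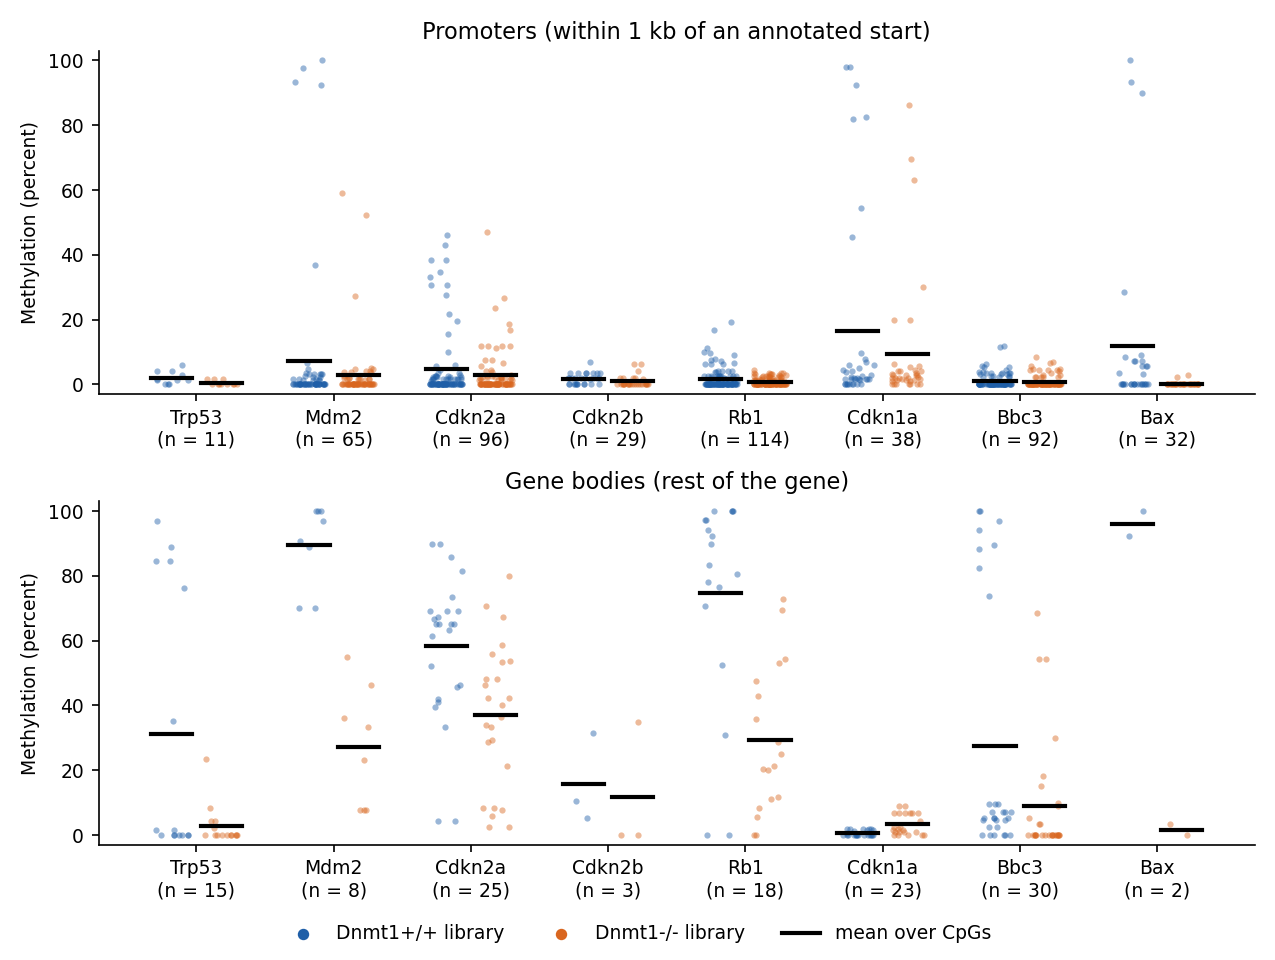
Methylation in percent (vertical axis) of each other CpG of the 8 genes, by gene, in the Dnmt1+/+ library (blue) and the Dnmt1-/- library (orange), with promoters above and bodies below. Black bars are means over the n CpGs given under each name. Promoter means stay at or below 16.6% in both libraries, and the body means of Mdm2 and Rb1 fall from 89.6% to 27.1% and from 74.6% to 29.3%.

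The 651 CpGs fell into 130 fragments, which gave a plainer count because CpGs of a fragment share reads. In Dnmt1+/+, 87 fragments averaged 20% or less, 17 lay in between, and 26 averaged 80% or more. All 87 weakly methylated fragments stayed at 20% or less in Dnmt1-/-. Of the 26 highly methylated fragments, none kept 80% and 10 fell to 20% or less, with Dnmt1-/- means from 0% to 76.9% and a median of 31.1%. A mean above that of Dnmt1+/+ was found in 35 fragments, of which 34 were at 20% or less in Dnmt1+/+.

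**Figure D2:**
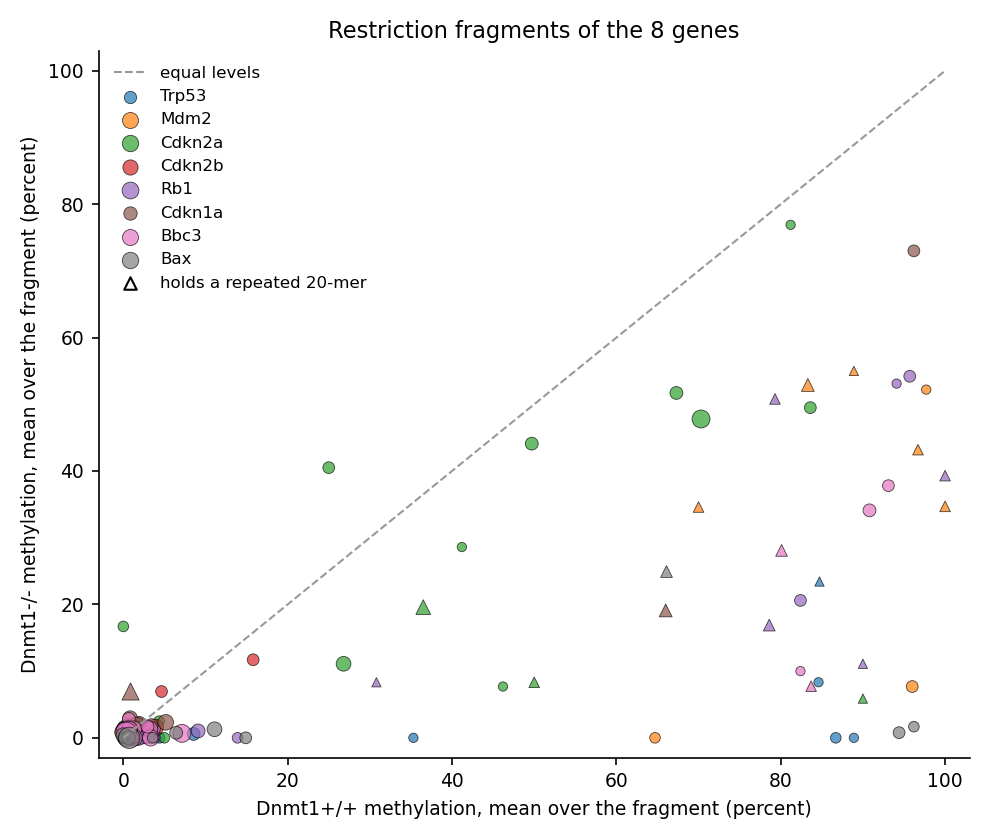
Mean methylation in percent of each of the 130 fragments in Dnmt1+/+ (horizontal axis) and Dnmt1-/- (vertical axis), coloured by gene, with marker area growing with the number of other CpGs. Triangles hold a 20-mer found at least 1000 times in the genome, and the dashed line marks equal levels. Highly methylated fragments spread from 0% (Trp53) to 76.9% (downstream of Cdkn2a) in Dnmt1-/-.

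In Trp53, weakly methylated CpGs near the start were followed by methylated ones in introns, which were far lower in Dnmt1-/-. No other CpG was listed at the start itself, and those of the promoter lay 596 to 918 bp past it. The 11 promoter CpGs had a mean of 2.06% ± 1.93 in Dnmt1+/+, against 0.413% ± 0.708 in Dnmt1-/-, and none was called. The 9 body CpGs from 1049 to 1159 bp past the start reached at most 1.61% in Dnmt1+/+ and 4.35% in Dnmt1-/-. The promoter and this stretch were thus weakly methylated in both libraries. The 4 CpGs farther along intron 1 were each called lower. They read 35.3% and 0% at 2053 bp, 88.9% and 0% at 2385 bp, 84.6% and 23.5% at 2861 bp, and 84.6% and 8.33% at 3880 bp, at depths of 11 to 34 calls.

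The deepest Trp53 fragment that was methylated lay 9971 to 9978 bp from the start, in intron 9 of the main transcript, and is printed above. Its CpGs stood at 76.3% of 59 calls and 97.1% of 105 calls in Dnmt1+/+, and at 0 of 77 and 0 of 135 calls in Dnmt1-/-. The larger fall, from 97.1% to 0%, had an adjusted p of 8.34e-62 by Fisher's exact test. Over all 15 body CpGs Trp53 averaged 31.3% and 2.85%, which placed its Dnmt1-/- body at percentile 4.03 among genes with at least 5 other body CpGs, and its Dnmt1+/+ body at percentile 7.22. The body difference of -28.5 points was -16.8 over the 12 CpGs with at least 20 calls and -17.1 with promoters limited to 500 bp. The 11 upstream CpGs lay inside the neighbouring gene Wrap53, and none of them exceeded 10.5% in either library.

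Both lines lack p53, so the depth along Trp53 was examined for a missing stretch of the gene. Listed CpGs lay upstream of the gene, in introns 1 and 9 and downstream of its end. The window held 70 listed CpGs, sites included, where 60.7 would be listed at the genome-wide share for CpGs of the same class and fragment length, a ratio of 1.15. For the other 7 genes this ratio was between 1.04 and 1.22. The median ratio of depths, Dnmt1-/- over Dnmt1+/+, was 1.13 in Trp53, 1.04 in the whole table and between 0.800 (Mdm2) and 1.41 (Rb1) in the other members.

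Between 182 bp before exon 2 and 452 bp past exon 9 no CpG was listed in Trp53. This stretch of 3604 bp (chr11:69400212-69403815) held 78 CpGs of which 6.65 would be listed at the shares above, nearly all of them (6.64) between exon 2 and exon 7. On its 5' side the last listed CpG had 14 calls in each library, and on its 3' side the printed intron 9 fragment had 59 to 135. The stretch was picked as the longest one in Trp53 without a listed CpG, so listing none was fixed by that choice. Of 25436 tiles of the genome with the same length and an expectation within 1 CpG of it, 9.16% listed none. Those tiles were not picked in this way, so their share does not measure how unusual the stretch is. Of the CpGs whose genome-wide share of listing was 0.3 or more, the stretch held 10, of which 6.31 would be listed. None was listed, again by the choice of the stretch. The rest of the window held 82 such CpGs and listed 66, where 50.1 would be. Unlisted runs with a larger expectation occurred in Rb1 (12.8 CpGs over 14569 bp) and Bbc3 (9.78 over 152 bp). The same held for Bax (8.24 over 527 bp) and Cdkn1a (7.70 over 138 bp). The run of Rb1 was longer than that of Trp53, and those of Bbc3, Bax and Cdkn1a were far shorter. A run in Cdkn2b (6.06 CpGs over 2759 bp) was near that of Trp53 in both expectation and length. The table leaves out a CpG that failed the depth limit in either library, so a missing stretch in 1 line, in both lines or in neither cannot be told apart here.

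**Figure D3:**
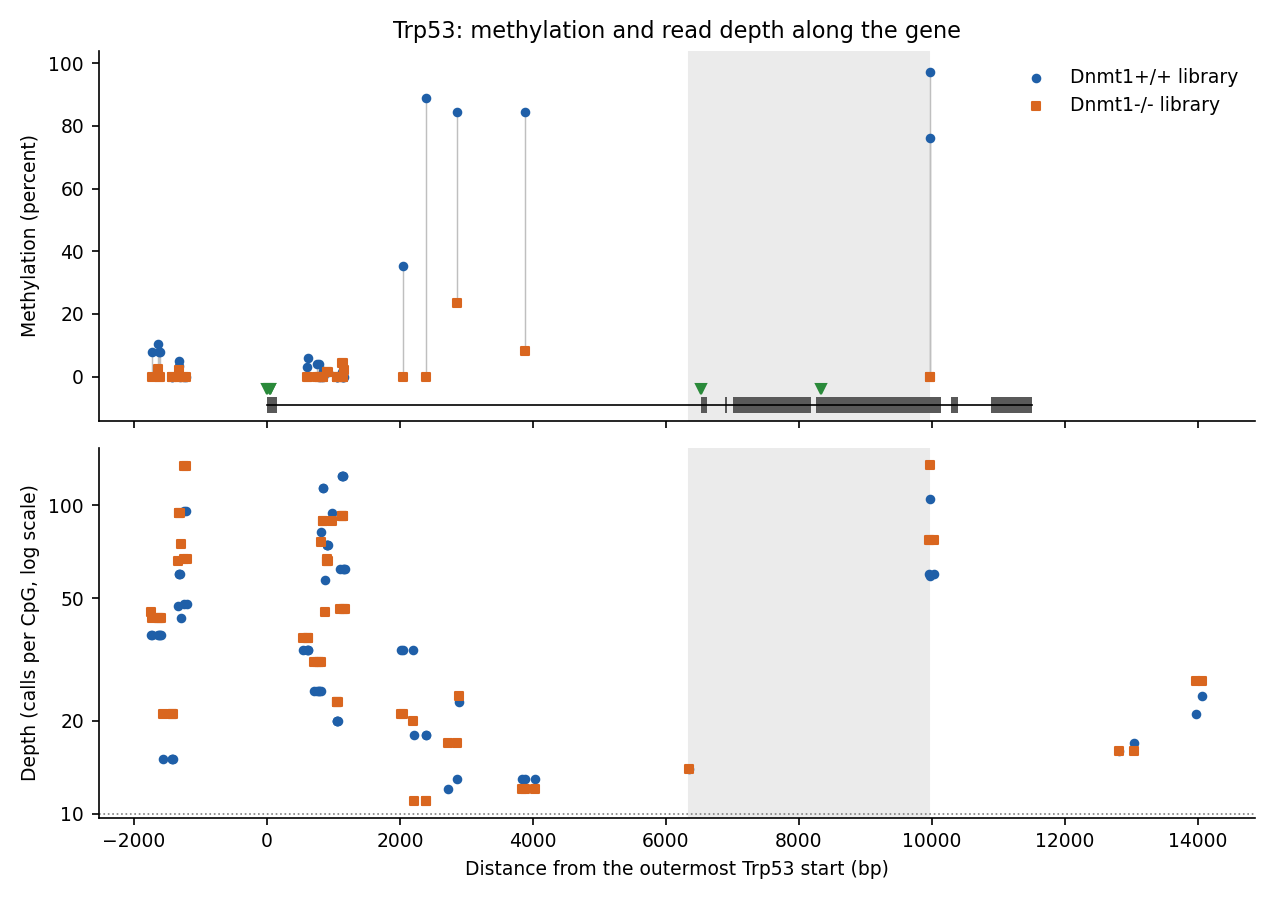
Methylation in percent of each other CpG (upper panel) and depth in calls of each listed CpG on a log axis (lower panel) against distance from the outermost Trp53 start in bp, for Dnmt1+/+ (blue circles) and Dnmt1-/- (orange squares). Grey lines join the libraries, dark boxes are exons of any annotated transcript, green triangles are annotated starts, the dotted line is the limit of 10 calls and the shaded band is the stretch of 3604 bp without a listed CpG. Methylated intron CpGs drop to between 0% and 23.5%.

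Mdm2, the ubiquitin ligase for p53, had a weakly methylated main promoter and a highly methylated body that was far lower in Dnmt1-/-. The 61 CpGs within 1 kb of the outermost start averaged 2.40% in Dnmt1+/+ and 1.73% in Dnmt1-/-, and 1 was called lower. That CpG, at -892 bp from the start, fell from 97.7% to 52.2%. The 8 body CpGs averaged 89.6% (95% interval of the pooled calls 90.3 to 96.7) and 27.1% (23.9 to 38.2), or 30.2% of the Dnmt1+/+ level. That share lay at percentile 35.7 among the 9610 bodies at 50% or more in Dnmt1+/+, whose quartiles were 24.1% and 48.6%. Of the 8 CpGs, 5 lay in fragments with repeated sequence, described further on, and the other 3, in the last exon, averaged 96.0% and 7.69%.

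Within Mdm2 the loss was uneven. The 3 CpGs of the last exon fell from 90.9%, 97.0% and 100% to 7.69% each (1 of 13 calls), and the largest of these falls had an adjusted p of 4.26e-09 by Fisher's exact test. The printed intron fragment, 1140 to 1148 bp past the outermost start and within 1 kb of a later start, stood at 92.4% and 37.0% of 92 calls in Dnmt1+/+ and at 0 of 44 calls at both CpGs in Dnmt1-/-. By contrast, a CpG at -1951 bp kept 63.2% from 100%, the highest Dnmt1-/- value among the Mdm2 CpGs that began at 80% or more, and was not called.

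Cdkn2a, which encodes p16 and ARF from separate first exons, kept a larger share of its body methylation than most genes. The 25 body CpGs averaged 58.3% (51.9 to 57.9 for the pooled calls) in Dnmt1+/+ and 37.0% (36.3 to 42.1) in Dnmt1-/-, or 63.5% of the first value. This share lay at percentile 96.0 among bodies at 50% or more in Dnmt1+/+, although the Dnmt1+/+ level itself was low, at percentile 13.6. Of the 25 CpGs 7 were called lower and 1 higher. When at least 20 calls were required, 16 CpGs remained and the difference was -15.7 points in place of -21.3.

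In intron 2, CpGs of the same fragment differed in opposite directions. At 19570 bp from the outermost start the level was 65.1% of 86 calls in Dnmt1+/+ and 29.3% of 82 calls in Dnmt1-/- (adjusted p = 1.92e-05, Fisher's exact test). At 19538 bp it was 41.9% of 86 calls and 70.7% of 82 calls (adjusted p = 7.12e-04, Fisher's exact test), which was the only rise called among the 651 other CpGs. The lowest depth in this fragment was 43 and 41 calls. The calls at these CpGs may therefore not all be independent, and both p-values may be too small. The remaining CpGs of this fragment, at 39.5% and 34.1% and at 52.2% and 42.4%, were not called. The largest called fall of the body lay at 18842 bp, from 90.0% of 10 calls to 5.88% of 17 calls.

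The starts of Cdkn2a differed from each other. Around the outermost starts, which lead to ARF, 82 CpGs averaged 0.910% ± 1.69 in Dnmt1+/+ and 0.587% ± 1.10 in Dnmt1-/-. Of these, 2 were called lower, at 6.06% and 4.55% in Dnmt1+/+ and 0% in Dnmt1-/-. Around the start of Cdkn2a-001, which leads to p16, 14 CpGs averaged 27.1% and 15.5%, and 3 were called lower. The largest of these falls was from 33.3% to 5.56% (adjusted p = 0.00121, Fisher's exact test). In the printed fragment of this first exon the 6 CpGs ranged from 30.8% to 46.2% on 26 calls and from 11.8% to 47.1% on 17 calls. The ranges overlapped and none of these 6 was called.

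Downstream of Cdkn2a, 3 CpGs within a few bases of each other kept unequal levels on 107 to 110 calls. They stood at 92.6%, 87.3% and 70.9% in Dnmt1+/+ and at 72.2%, 50.5% and 25.9% in Dnmt1-/-, and all 3 were called lower. The highest Dnmt1-/- level among the Cdkn2a CpGs at 80% or more in Dnmt1+/+ was also downstream, at 81.2% of 16 calls and 76.9% of 13 calls, and was not called. Of the downstream other CpGs, 4 lay within the noncoding gene Gm12606.

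**Figure D4:**
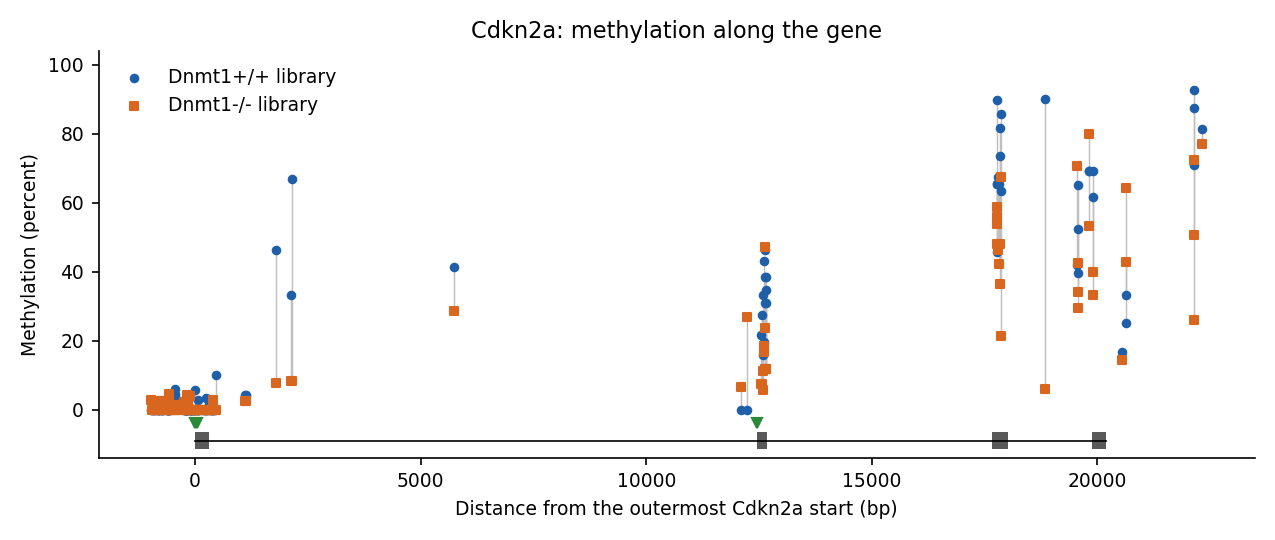
Methylation in percent of each other CpG against distance in bp from the outermost Cdkn2a start, in Dnmt1+/+ (blue circles) and Dnmt1-/- (orange squares), with a grey line joining the values of a CpG. CpGs at the ARF starts average 0.910% and 0.587%, those at the p16 start 27.1% and 15.5%, and those of the body 58.3% and 37.0%.

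Cdkn2b, which encodes the kinase inhibitor p15 next to Cdkn2a, was weakly methylated in both libraries, and none of its 35 CpGs was called. The 29 promoter CpGs had a mean of 1.73% ± 1.70 in Dnmt1+/+, against 0.894% ± 1.78 in Dnmt1-/-. In the printed promoter fragment the 8 CpGs averaged 3.88% and 1.56%. The body was covered by 3 intron CpGs only, at 31.6%, 10.5% and 5.26% of 19 calls in Dnmt1+/+ and at 35%, 0% and 0% of 20 calls in Dnmt1-/-.

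Rb1, whose product holds back the E2F transcription factors, combined a weakly methylated promoter with a broad loss over its body. The 114 promoter CpGs had a mean of 1.72% ± 3.31 in Dnmt1+/+, against 0.796% ± 1.18 in Dnmt1-/-, and none was called. The 18 body CpGs averaged 74.6% (76.2 to 83.3 for the pooled calls) and 29.3% (39.1 to 46.3), with 14 called lower and none higher in Dnmt1-/-. The kept share of 39.3%, taken from the means over CpGs, lay at percentile 54.1 among bodies at 50% or more in Dnmt1+/+. The body difference of -45.3 points was -37.3 for pooled calls and -35.6 over the 6 CpGs with at least 20 calls. With promoters limited to 500 bp it was -33.0 points. The largest called fall was in an intron, from 90% of 20 calls to 11.1% of 18 calls (adjusted p = 9.03e-06, Fisher's exact test). It lay in a fragment with 6 copies in the genome, so its reads may stem from another copy. Several more of the body CpGs lay in fragments with repeated sequence, described further on.

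Neighbouring Rb1 CpGs kept different amounts. In a fragment of exon 8, a CpG fell from 97.4% of 39 calls to 20.3% of 59 calls. Within 32 bp of it, another stood at 92.3% of 78 calls and 72.9% of 118 calls, the highest Dnmt1-/- level among the Rb1 CpGs at 80% or more in Dnmt1+/+. Both were called lower. Of the body CpGs, 11 were at 80% or more in Dnmt1+/+, and they averaged 94.1% ± 6.95 there and 38.1% ± 22.5 in Dnmt1-/-.

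Cdkn1a encodes p21, the cyclin-dependent kinase inhibitor through which p53 stops the cell cycle. Its methylation differed between starts. Around the start of Cdkn1a-001, 31 CpGs averaged 2.52% ± 2.60 in Dnmt1+/+ and 2.11% ± 1.63 in Dnmt1-/-, and none was called. Around the innermost start, 7 CpGs averaged 79.0% ± 21.0 and 42.2% ± 30.5, and 4 were called lower. The outermost start had no listed other CpG within 1 kb.

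The 3 CpGs of Cdkn1a exon 2 are printed above. They stood at 92.5%, 98.1% and 98.1% on 53 to 106 calls in Dnmt1+/+ and at 63.1%, 69.7% and 86.4% on 65 to 132 calls in Dnmt1-/-. The last value was the highest Dnmt1-/- level of any member CpG, and its fall was still called (adjusted p = 0.00267, Fisher's exact test). The largest fall of the gene was from 82.4% to 6.25%, at 7061 bp from the outermost start. It lay in a fragment with 121 copies in the genome, described further on, whose 4 CpGs are among those around the innermost start.

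The Cdkn1a body, by contrast, was nearly unmethylated and read slightly higher in Dnmt1-/-. The 23 intron CpGs averaged 0.657% ± 0.881 in Dnmt1+/+ (0.366 to 1.11 for the pooled calls) and 3.34% ± 3.15 in Dnmt1-/- (1.65 to 2.83), and 17 of the 23 were above their Dnmt1+/+ value. None was called. The printed intron fragment held 9 of them, at 0% to 2% and at 4.44% to 8.89%, so that its ranges did not overlap. That fragment contains a run of alternating TG and CG, which occurs at many places in the genome, and its part in the difference was not tested. With promoters limited to 500 bp the body held 47 CpGs and the difference turned from 2.68 to -0.309 points. It was 1.52 points for pooled calls and 0.246 points with CCGG and TCGA sites included.

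Bbc3 encodes PUMA, a BH3-only protein that promotes apoptosis. Its 92 promoter CpGs had a mean of 1.10% ± 2.27 in Dnmt1+/+, against 0.869% ± 1.88 in Dnmt1-/-, and none was called. The body was split: the 10 CpGs of exon 2 printed above ranged from 4.76% to 9.52% and from 0% to 3.33%, with none called. By contrast, the 7 body CpGs at 80% or more in Dnmt1+/+ averaged 93.0% ± 6.64 and 29.3% ± 23.4. All 7 were called lower, and no share of all body CpGs at that level was taken for comparison. The difference over all 30 body CpGs was -18.4 points, -11.4 with at least 20 calls and -9.87 with promoters limited to 500 bp. The largest fall was from 100% of 19 calls to 18.2% of 11 calls (adjusted p = 2.12e-05, Fisher's exact test). The highest level kept was 68.4%, from 97.1%.

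Bax encodes a pore-forming BCL2 family protein of the outer mitochondrial membrane and showed the most complete loss among the 8 promoters. The 32 promoter CpGs had a mean of 11.7% ± 27.6 in Dnmt1+/+, against 0.167% ± 0.665 in Dnmt1-/-, the latter at percentile 1.17 among promoters. The 3 called CpGs were those of exon 3, which stood at 100%, 93.3% and 90.0% of 30 to 60 calls in Dnmt1+/+ and at 2.33%, 0% and 0% of 43 to 86 calls in Dnmt1-/-. Their largest fall had an adjusted p of 5.38e-18 by Fisher's exact test. None of the other 29 promoter CpGs was called. With promoters limited to 500 bp those 3 CpGs counted as body, and the promoter difference was -3.05 in place of -11.5 points. It was -25.6 points over the 12 CpGs with at least 20 calls.

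The next exon of Bax gave the same picture on a separate fragment. Its 2 CpGs, the only body CpGs of the gene, stood at 100% and 92.3% of 26 calls in Dnmt1+/+ and at 0% and 3.33% of 30 calls in Dnmt1-/-, and both were called lower. Upstream of Bax, 3 CpGs at 80%, 60% and 57.9% read 38.5%, 30.8% and 5.88%, with only the last called. The 17 downstream CpGs, all within 1 kb of the start of Ftl1, averaged 3.92% and 0.593%, and none was called.

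**Figure D5:**
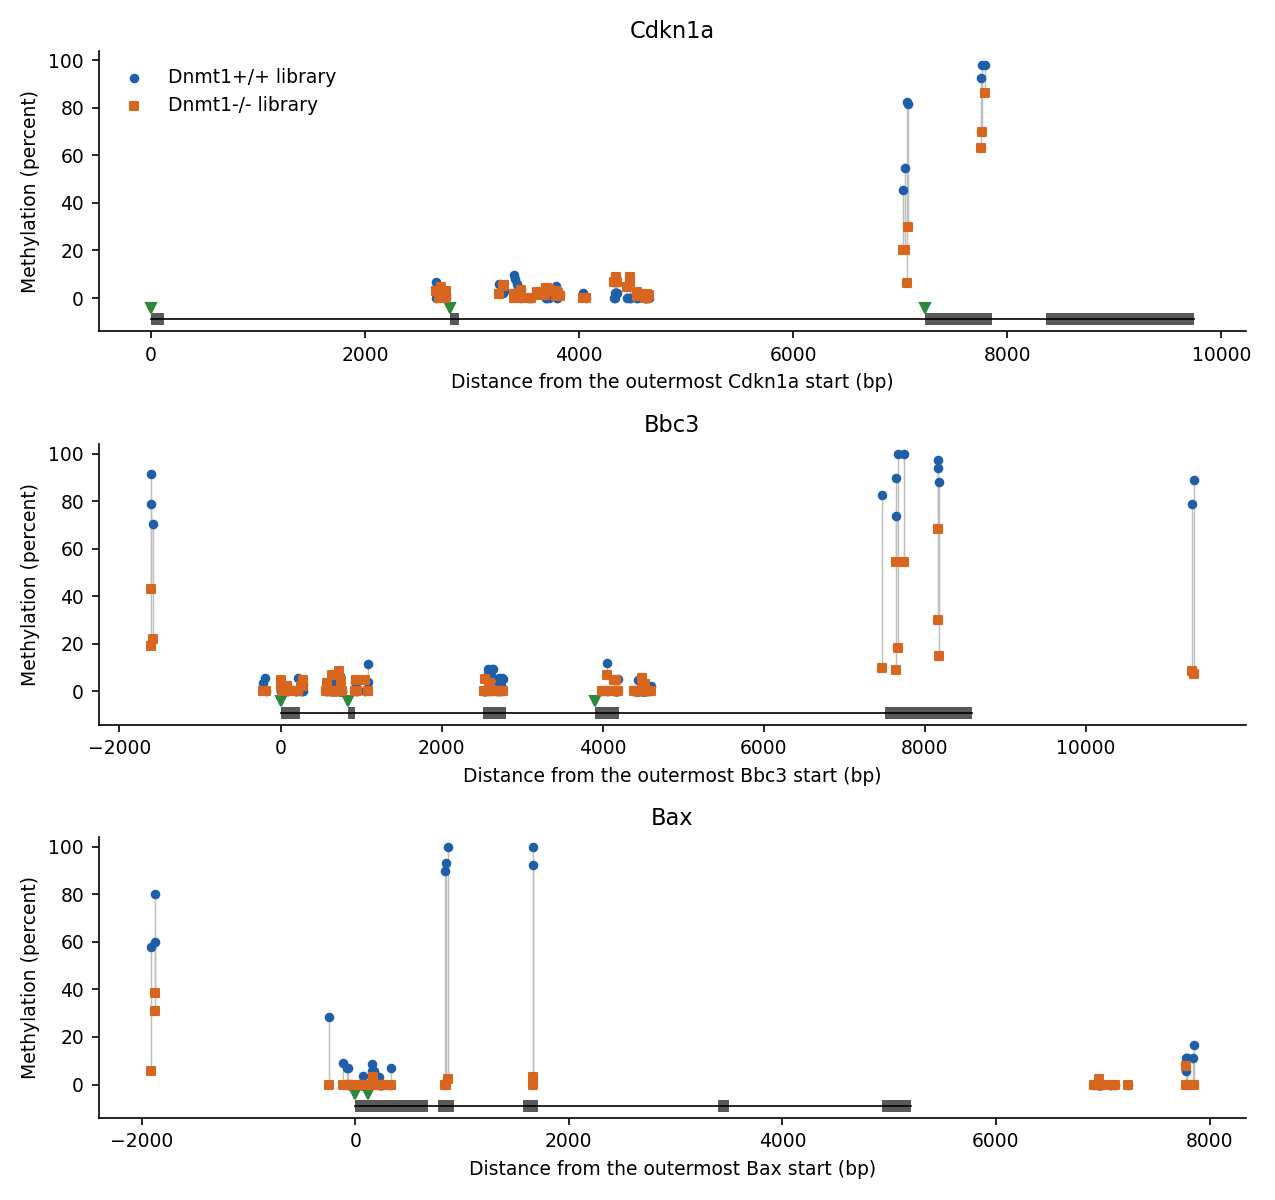
Methylation in percent of each other CpG against distance in bp from the outermost start of Cdkn1a, Bbc3 and Bax, in Dnmt1+/+ (blue circles) and Dnmt1-/- (orange squares), with a grey line joining the values of a CpG. Exon 2 of Cdkn1a keeps 63.1% to 86.4%, while the methylated exons of Bax fall to between 0% and 3.33%.

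Part of the methylated CpGs of these genes lay in repeated sequence. A 20-mer with at least 1000 copies in the genome occurred in 19 of the 130 fragments, a split chosen after the values were seen. These 19 held 51 CpGs, of which 20 were called lower and none higher. The other 111 fragments held 600 CpGs with 46 called lower and 1 higher. Among fragments at 80% or more in Dnmt1+/+, the 10 repeated ones ranged from 5.88% to 55.0% in Dnmt1-/- (median 31.4%) and the 16 others from 0% to 76.9% (median 27.4%), so the ranges overlapped.

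Short fragments of 70 to 71 bases recurred 11 times, in Mdm2, Rb1, Cdkn1a, Bbc3 and Bax. Their letters resemble the B1 family, a short interspersed repeat of the mouse genome. As whole fragments 7 of them occur once in the genome. By contrast, the Cdkn1a fragment has 121 copies, the Bbc3 downstream fragment 14, a Rb1 fragment 6 and the Bbc3 upstream fragment 3. How reads with several matches were placed is not given in the sources used here. The following 3 show how alike such fragments are, at Mdm2 (chr10:117149752-117149821, minus strand), Bbc3 (chr7:16906271-16906340, minus strand) and Bax (chr7:52724132-52724201, plus strand).
Mdm2 upstream: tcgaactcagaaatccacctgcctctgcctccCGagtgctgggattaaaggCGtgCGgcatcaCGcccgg
Bbc3 downstream: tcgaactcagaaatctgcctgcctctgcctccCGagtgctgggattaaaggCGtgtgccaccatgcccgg
Bax upstream: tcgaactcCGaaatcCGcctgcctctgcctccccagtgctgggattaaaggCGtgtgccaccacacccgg

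Levels in Dnmt1-/- differed among these fragments. The Rb1 fragment most like that of Bbc3 shares 69 of 70 bases with it and stood at 11.1% in Dnmt1-/-. The Cdkn1a fragment shares 68 bases and the one upstream of Bbc3 67, and their pooled levels were 17.9% (10 to 29.8) and 25.4% (16.5 to 36.9). The Mdm2 fragment shares 64 bases with the Bbc3 fragment. In Dnmt1-/- the pooled level was 52.4% of 105 calls (42.9 to 61.7) at Mdm2 and 7.69% of 26 calls (2.14 to 24.1) at Bbc3, while the means in Dnmt1+/+ were 83.3% and 83.7%. Fragments in Mdm2 with 65 and 63 shared bases stood at 55% (34.2 to 74.2) and 43.2% (29.7 to 57.8). Another in Mdm2, with 51 shared bases, stood at 34.7% (24.8 to 46.2). The Bax fragment shares 65 bases with that of Bbc3 and stood at 23.3% (13.2 to 37.7) in Dnmt1-/-. The fragments sharing 67 or more bases were also those with several copies in the genome, so likeness and number of copies cannot be told apart here. Over all 11 fragments the Dnmt1-/- means ran from 7.74% to 55.0% with a median of 28.1%.

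Promoters and bodies were also counted in a list of 75 further genes of the pathway. Of these, 70 had at least 5 other CpGs in the promoter. In all, 8 promoters fell by at least 10 points, none rose by that much and 62 moved by less, beside falls in 23.9% of promoters genome-wide, and the median went from 2.90% to 1.39%. The largest promoter falls were in Bak1, a mitochondrial relative of Bax (85.5% to 35.8%), the death receptor gene Fas (29.6% to 0%), the lamin gene Lmna (27.0% to 7.12%), the DNA repair gene Ddb2 (27.8% to 9.79%) and the cyclin gene Ccnd1 (13.5% to 0.867%). Of 46 bodies, 45 fell, beside 95.2% of bodies genome-wide, and 1 moved by less, that of the chromatin protein gene Hmga1 (4.83% to 1.01%). The median body went from 88.1% to 31.8%.

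By group, bodies fell in 12 of 12 regulators of p53, 9 of 9 target genes, 7 of 7 genes of the BCL2 family and caspases, 8 of 8 genes of the RB pathway and 9 of 10 senescence genes, counts near the genome-wide share of 95.2%. By the distance over the promoter and body means of both libraries, the genes of the list nearest to Rb1 were Ccnd2 (4.49 points) and Atr (4.81), and nearest to Mdm2 were Bid (6.76) and Chek2 (7.28). Trp53 and Bbc3 were both nearest to Bad (9.84 and 6.06) and then to Cdkn1b (13.4 and 12.7). Cdkn2a was nearest to Ets1 (9.16) and Bcl2 (9.47). Cdkn1a had the most distant neighbours, Hmga1 (18.2) and Cdkn1b (22.3).

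A match to the p53 response element within 3 kb of the outermost start was found in 1 of the 8 genes and in 1.79% of 22367 protein-coding genes. It lay 42 bp before the outermost start of Cdkn1a (chr17:29227851-29227882, plus strand) and is shown because Cdkn1a is the standard p53 target, with its matching blocks in capitals.
Cdkn1a match: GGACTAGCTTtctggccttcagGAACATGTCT
The match holds no CpG, and the nearest listed CpG was 2686 bp away, so its methylation was not measured.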

How the data were processed

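RRBS had been performed on 1 library each of Dnmt1+/+ and Dnmt1-/- MEFs, and Bismark and mm9 are named in the submitters' processing notes; versions, enzymes and the treatment of multiply mapped reads are not given in the sources used here. The deposited table gives for each CpG the depth, as counts of calls, and the methylation percent of each library. Per the authors' table a CpG has at least 10 calls in both libraries. Methylated calls were recovered as percent times depth, which came out whole (within 0.01 calls) for 100% of values in both libraries.

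The members and gene lists were chosen with earlier results of these data known. CpGs were placed by the NCBIM37 annotation. Each CpG was compared by Fisher's exact test, adjusted over the whole table by the Benjamini-Hochberg method, which sets side by side 2 libraries and not the genotypes. Pooled calls got 95% Wilson intervals, which are too narrow because CpGs share reads, and 120 of 635 CpGs had over 1.8 times the lowest depth of their fragment. If calls at such CpGs repeat the same reads, their p-values are too small as well, which was not tested. Intervals and floors (3 calls, or 30% at a depth of 10) cover counting error only.

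Named CpGs were, per member, those with the largest called fall or rise in promoter and body and the highest Dnmt1-/- level among CpGs at 80% or more in Dnmt1+/+. From the pathway list up to 5 genes with the largest fall or rise of at least 10 points and the 2 nearest genes of each member were named, given at least 5 CpGs. Further CpGs and fragments, including those printed, were chosen after their values were seen. The p53 element was searched on both strands as a pair of blocks up to 13 bases apart. Alternatives were a depth of 20, a least difference of 25 points, a threshold of 0.01 on the adjusted p, thinning to 10 calls, pooled calls, inclusion of CCGG and TCGA sites, promoters of 500 bp or of the outermost start, removal of depths above the 99th percentile, and 1 CpG per fragment. The body value of 1 further gene of the pathway list and 1 further fragment of a member are not reported here. Scripts were tested on simulated data and used scipy 1.17.1, pandas 2.3.3, matplotlib 3.10.9, numpy 2.4.6, pysam 0.24.0 and numba 0.67.0 under Python 3.11.15.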

Additional observations from a re-analysis of the deposited data

How the results depend on the processing

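The count of 66 other CpGs called lower became 38 with at least 20 calls, 27 after thinning to 10 calls, 116 with CCGG and TCGA sites included and 28 with 1 CpG per fragment, an alternative chosen after seeing the data. The single CpG called higher became 0 after thinning, 5 with sites included and 0 with 1 CpG per fragment. The promoter difference of -2.67 points was -2.02 with at least 20 calls, -2.08 for pooled calls, -2.07 with 500 bp promoters and -1.55 with the outermost start alone. The body difference of -23.9 points was -14.2, -14, -17.3 and -16.4 under these 4 settings. The Trp53 depth ratio of 1.13 was 1.04 for summed calls, and its listed over expected ratio of 1.15 was 1.97 with the expectation by class of CpG alone. Thinning and 1 CpG per fragment use fewer calls or CpGs by construction, and otherwise the cause was not tested. For single genes, 33 of 62 alternatives moved the value by less than its spread, 28 by more, and 1 reversed it: the Cdkn1a body difference of 2.68 points was -0.309 with 500 bp promoters. No paired analysis was possible because a single library stood for either line, and for the same reason no replicate was left out. A minimum of 5 calls was not tried since the table begins at 10. At a depth of 10, a level of up to 30% can give 0 methylated calls.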
